A study of Mus musculus with 12 samples.

Results

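The genes described here were 9 that mark myelin and the oligodendrocytes that make it, Mbp, Mobp, Mal, Mog, Mag, Opalin, Cnp, Cldn11 and Ermn, out of 55385 genes in the expression table. They were chosen by their symbols, and each symbol matched 1 row. RNA was sequenced from the brains of 12 male wild-type C57BL/6J mice, bought at 8 weeks of age, with 3 mice in each of 4 groups and 1 library per mouse. The C_W mice were unstressed and were given water, and the C_O mice were unstressed and were given krill oil, an oil of marine n-3 fatty acids, by gavage at 200 mg/kg per day. The MS_W mice went through chronic unpredictable mild stress (CUMS) for 4 weeks and were given water, and the MS_O mice went through CUMS and were given krill oil. The study's results give 5 weeks of krill oil. Its discussion places the oil before and during CUMS, and its methods word the start differently. All mice were perfused with saline before the brain was taken, and the controls received water in place of a second oil, so krill oil was not compared with another fat. Each library carries the name of its group and the number of its mouse (C_O72 is mouse 72 of the C_O group). The comparisons ask whether CUMS, krill oil or both together moved these genes.

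Oligodendrocytes wrap the axons of the central nervous system in stacked layers of membrane, the myelin sheath, which speeds the conduction of impulses. White matter, the brainstem and the spinal cord hold much myelin, and the cerebral cortex and olfactory bulb hold less. The sheath has a compact part, where the membranes lie pressed together, an outer surface and an inner face towards the axon, and cytoplasm-filled edges sealed by tight junctions. The cells arise from dividing precursors, pass through a short newly formed stage and then switch on the myelin genes under transcription factors such as Olig2, Sox10 and Myrf.

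The sequences before the start sites are shown because the RNA levels of these genes moved together from library to library. RefSeq promoter windows on build GRCm38.p6 were found for 8 of the 9 genes, Mbp being the exception, and the 250 bases before each start site were searched on both strands for letters that SOX factors (ACAAAG or AACAAT), E-box factors (CAGCTG) and MYRF (CTGGCAC or CTGGTAC) are known to prefer. SOX letters were present in 5 of the 10 windows of these genes, from 4 genes, against 24% of all 32851 windows in the table. MYRF letters were present in 4 of the 10, from 3 genes, against 5.93% of all windows, and the E-box letters in 0 of the 10 against 13%. Of the 3 windows of Mag, those numbered 2 and 3 overlap and share both of their matches. The windows of Mal, Cldn11, Ermn and the window of Mag numbered 1 held none of these letters, which says nothing about the factors themselves. The 5 genes with a match are shown 5′ to 3′ on the strand of the gene, with the matched letters in capitals.
Mobp, chr9:120149492-120149741, plus strand: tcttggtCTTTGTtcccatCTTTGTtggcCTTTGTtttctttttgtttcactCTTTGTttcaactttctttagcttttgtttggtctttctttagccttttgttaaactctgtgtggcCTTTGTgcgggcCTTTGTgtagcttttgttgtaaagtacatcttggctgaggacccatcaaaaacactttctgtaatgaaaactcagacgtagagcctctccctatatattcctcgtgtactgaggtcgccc
Cnp, chr11:100574689-100574938, plus strand: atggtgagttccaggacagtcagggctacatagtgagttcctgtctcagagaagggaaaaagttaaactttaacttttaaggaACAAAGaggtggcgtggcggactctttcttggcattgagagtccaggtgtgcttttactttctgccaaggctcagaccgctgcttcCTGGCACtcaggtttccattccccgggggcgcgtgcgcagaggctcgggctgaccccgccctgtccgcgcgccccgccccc
Mag, chr7:30914864-30915113, minus strand: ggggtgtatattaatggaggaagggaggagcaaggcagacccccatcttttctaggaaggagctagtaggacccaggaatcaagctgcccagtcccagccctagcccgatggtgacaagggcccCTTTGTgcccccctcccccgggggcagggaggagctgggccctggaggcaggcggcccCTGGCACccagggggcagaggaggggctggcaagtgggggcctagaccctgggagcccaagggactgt
Mog, chr17:37023399-37023648, minus strand: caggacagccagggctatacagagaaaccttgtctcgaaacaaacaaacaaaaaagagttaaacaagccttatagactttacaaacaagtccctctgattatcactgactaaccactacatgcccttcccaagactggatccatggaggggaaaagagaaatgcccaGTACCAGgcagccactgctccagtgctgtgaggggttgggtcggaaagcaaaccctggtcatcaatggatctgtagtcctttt
Opalin, chr19:41077114-41077363, minus strand: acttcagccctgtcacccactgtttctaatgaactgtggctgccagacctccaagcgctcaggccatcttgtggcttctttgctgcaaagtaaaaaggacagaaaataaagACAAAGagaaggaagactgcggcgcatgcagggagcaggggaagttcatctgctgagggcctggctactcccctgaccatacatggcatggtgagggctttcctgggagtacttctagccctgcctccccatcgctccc
The window of Mobp held SOX letters 6 times, between 243 and 115 bases before the start site, all read on the opposite strand. Cnp and Mag each held SOX letters and MYRF letters once, Mog held MYRF letters once and Opalin held SOX letters once.

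The levels are FPKM, the fragments per kilobase of transcript scaled to the fragments mapped, so that they can be compared between genes of different length. The summed estimated counts were 50912906 to 75678721 per library. The highest of these sums is above the raw reads that the study lists for any library, so they do not give the sequencing depth. The 9 genes had between 787 and 123084 estimated counts each in every library. C_O72 and MS_W95 differed from the other 10 libraries in the genes of whole brain regions. All 6 markers of hindbrain and spinal cord, among them Slc6a5 (the glycine transporter of inhibitory neurons) and Hoxb5, were above the other 10 in both, with a summed FPKM of 71.0 and 25.9 against 0.0171 to 0.0974. Hoxb3 and Hoxc4 were listed at 0 in all of the other 10. The 5 cerebellar markers were also above the other 10 in both, and Pcp2 of Purkinje cells had an FPKM of 31.3 in C_O72 and 114.2 in MS_W95 against 0.0622 to 0.212. The 5 olfactory bulb and neuroblast markers were below the other 10 in both, and 4 of the 5 cortex neuron markers were. The tissue is labelled brain and the study describes whole brains, yet the hindbrain markers and the cerebellar markers Pcp2 and Gabra6 were near 0 in 10 of the 12 libraries. Results are therefore given for all 12 libraries and for the 10 without C_O72 and MS_W95. In a bulk sample, fewer cells of a type and less RNA per cell cannot be told apart.

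The 9 genes were highest in C_O72 without exception, and lowest in C_O30, a library of the same group, without exception. MS_W95 was the next highest for 8 of the 9. The other 10 libraries lay within 1.73-fold to 2.59-fold of each other, depending on the gene. Over the 12 libraries the mean FPKM ran from 110.0 for Mobp through 82.0 for Cnp, 79.4 for Mal, 64.3 for Cldn11, 58.5 for Mbp, 40.3 for Mog, 37.1 for Mag and 13.4 for Ermn to 7.24 for Opalin. Mobp was the 294th most abundant gene of the table and Opalin the 5837th.

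The first 3 genes belong to the compact sheath. Mbp (ENSMUSG00000041607), the protein that binds the inner faces of the myelin membrane to each other, had an FPKM of 51.2, 37.2 and 53.7 in the C_W mice 1, 64 and 70. It was 56.9, 33.0 and 162 in the C_O mice 15, 30 and 72. It was 51.6, 47.6 and 82.9 in the MS_W mice 31, 75 and 95, and 45.9, 45.1 and 35.5 in the MS_O mice 13, 46 and 78. A single C_O library thus lay at 3.45 times the median of the 10 other libraries, while the rest of its group lay on both sides of C_W. Mobp (ENSMUSG00000032517, chromosome 9, 120149707 to 120176091, plus strand), another protein of compact myelin of the central nervous system, was 99.6, 70.5 and 110.1 in C_W and 98.2, 51.6 and 314 in C_O, in the same order of mice. It was 88.2, 91.0 and 157 in MS_W and 89.0, 82.1 and 68.7 in MS_O. The highest Mobp value was 6.09 times the lowest, and both came from C_O mice. Mal (ENSMUSG00000027375, chromosome 2, 127633226 to 127656695, minus strand), a lipid raft protein of myelin, was 82.0, 58.8 and 94.7 in C_W and 84.9, 45.3 and 160.1 in C_O. It was 73.6, 77.0 and 97.0 in MS_W and 74.6, 57.4 and 47.3 in MS_O. Mal was closer to the rest in the libraries that stood apart, at 2.16 times the median of the other 10 in C_O72 and 1.31 times in MS_W95, and its MS_W95 value was close to that of C_W70.

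The next 3 genes encode proteins at the sheath's faces. Mog (ENSMUSG00000076439, chromosome 17, 37010743 to 37023398, minus strand), found on the outermost layer of myelin and a known target of autoimmune attack, was 36.9, 25.1 and 42.3 in C_W. It was 32.4, 20.7 and 114 in C_O, 29.4, 35.0 and 57.3 in MS_W, and 36.5, 31.4 and 22.9 in MS_O. Its value in C_O72 was 3.59 times the median of the other 10 libraries, the highest such ratio of the 9 genes. Mag (ENSMUSG00000036634, chromosome 7, 30899176 to 30914865, minus strand), a receptor on the layer next to the axon, was 34.5, 22.0 and 33.7 in C_W and 31.8, 19.5 and 105 in C_O. It was 28.9, 34.1 and 51.9 in MS_W and 31.2, 27.1 and 25.3 in MS_O. The MS_O mice spanned the narrowest range of Mag, inside that of C_W. Opalin (ENSMUSG00000050121, chromosome 19, 41061710 to 41077113, minus strand), a membrane protein specific to oligodendrocytes of the central nervous system, was 7.69, 5.29 and 7.89 in C_W and 6.004, 4.23 and 12.97 in C_O. It was 6.16, 8.67 and 9.40 in MS_W and 8.25, 5.58 and 4.72 in MS_O. Opalin had the smallest ratio of C_O72 to the median of the other 10, at 2.13, and the smallest ratio of the highest to the lowest of the 12 libraries, at 3.07.

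The last 3 genes act in the cytoplasm and at the junctions of the sheath. Cnp (ENSMUSG00000006782, chromosome 11, 100574904 to 100591729, plus strand), a cyclic nucleotide phosphodiesterase of the cytoplasm-filled edges, was 73.7, 59.9 and 77.5 in C_W and 67.0, 49.0 and 187 in C_O. It was 74.2, 84.8 and 124 in MS_W and 71.7, 59.2 and 56.8 in MS_O. The lowest MS_W value of Cnp lay above the highest MS_O value. Cldn11 (ENSMUSG00000037625, chromosome 3, 31149920 to 31164324, plus strand), the tight junction protein that seals the layers, was 71.2, 44.4 and 71.1 in C_W and 63.3, 35.2 and 156 in C_O. It was 52.8, 60.9 and 70.2 in MS_W and 59.0, 46.7 and 41.4 in MS_O. Cldn11 was the 1 gene of the 9 that was not second highest in MS_W95, where it lay below C_W1 and C_W70. Ermn (ENSMUSG00000026830, chromosome 2, 58045113 to 58052864, minus strand), which arranges the actin cytoskeleton of oligodendrocytes, was 11.2, 8.41 and 15.9 in C_W and 12.1, 6.13 and 36.7 in C_O. It was 11.6, 11.2 and 21.9 in MS_W and 10.8, 8.39 and 6.69 in MS_O. Its ratio of the highest to the lowest of the 10 libraries, 2.59, was the widest of the 9 genes. Exons of Mobp, Cnp and Ermn overlap exons of another gene in GENCODE release M21 (Gm38642, Dnajc7 and Galnt5), the last 2 on the opposite strand. Gm38642 lies on the same strand as Mobp, so counting by strand would not separate their reads. For Cnp and Ermn, whether the reads were counted by strand is not given in the sources used here. A share of the reads of Mobp, Cnp and Ermn may therefore belong to the overlapping genes.

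**Figure D1:**
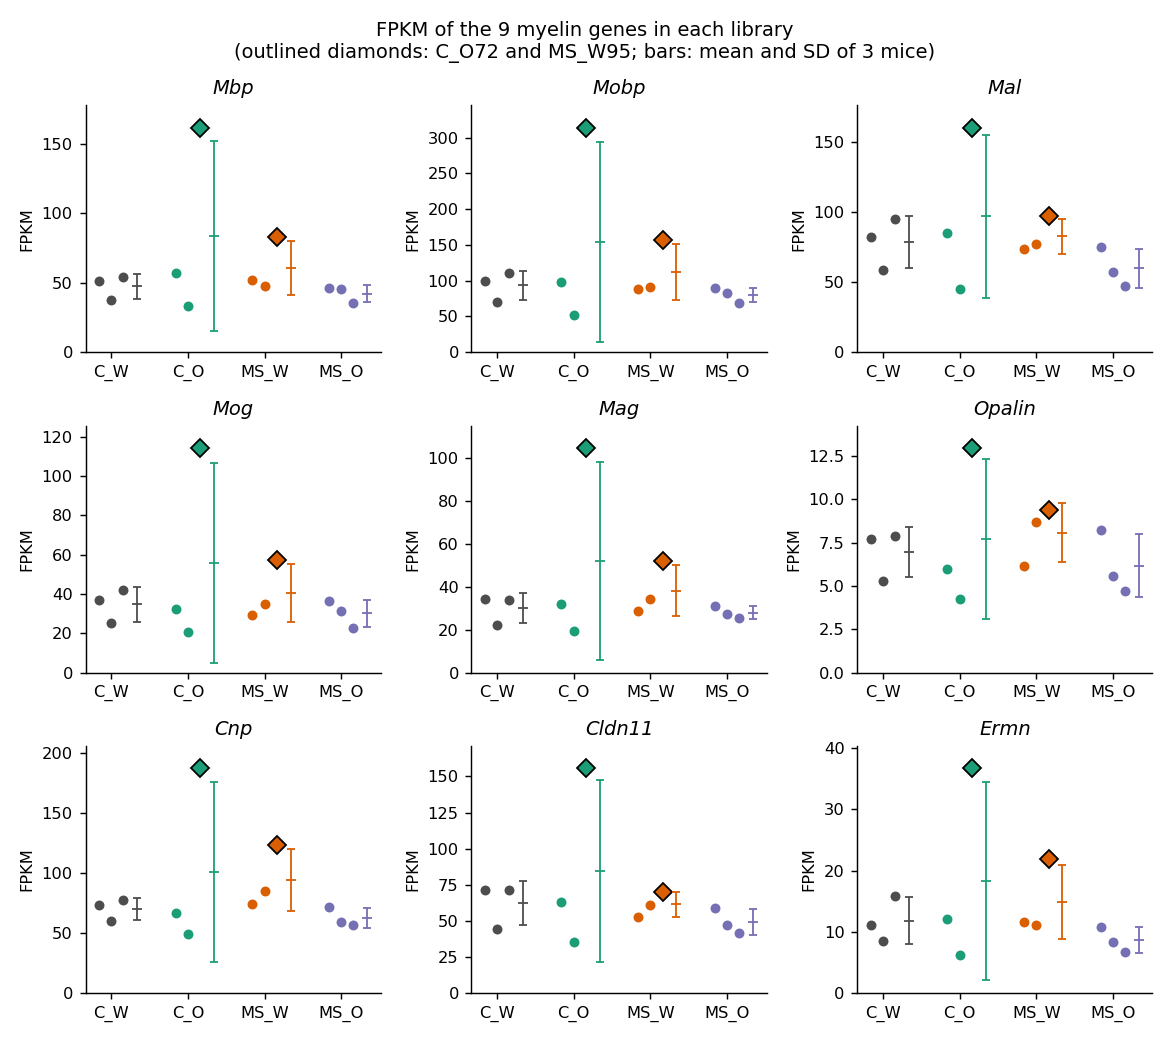
FPKM of the 9 genes (1 panel each, linear axis from 0) in the 12 libraries, by group, with the group mean and SD of 3 mice beside the points. Outlined diamonds are C_O72 and MS_W95; the C_O72 point is the highest of each panel, and the C_O mean of Mbp, 83.8 ± 68.4, lies between it and the other 2 C_O mice.

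The group means were in the same order, C_O above MS_W above C_W above MS_O, for 7 of the 9 genes. For Mbp they were 83.8 ± 68.4 (SD, n = 3) in C_O, 60.7 ± 19.3 in MS_W, 47.4 ± 8.90 in C_W and 42.2 ± 5.81 in MS_O. In Opalin MS_W came first, and in Cldn11 C_W came before MS_W. For 0 of the 9 genes did any group in this order stand clear of its neighbour, since the values of neighbouring groups overlapped each time. The order of the group medians differed, with C_O, C_W and MS_W each the highest for 3 genes, and MS_O the lowest for all 9 by mean and by median.

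The 9 genes moved together from library to library. Pearson's r of log2(FPKM + 1) between pairs of them was 0.71 to 0.98 (median 0.90, 36 pairs) over the 10 libraries, and 0.86 to 0.99 (median 0.96) over all 12, where C_O72 and MS_W95 set much of the range. These pairs share their libraries and the scaling of each library, so the r values are a description. Because the genes moved together, a shared direction in a comparison is not 9 independent observations. The SD of log2(FPKM + 1) over the 10 libraries was 0.24 to 0.38 (median 0.32), against a median of 0.16 over the 7506 genes whose mean FPKM reached 5. Over the 12 libraries the members had a median SD of 0.61, against 0.22 for those 7506. The 9 genes together made up 0.382% of the summed FPKM in C_O72, 0.223% in MS_W95, 0.0854% in C_O30 and at most 0.169% in the other libraries. With C_O72 above all 10 of the other libraries for 9 of 9 genes, the background was wide, since 25.9% of the 21393 tested genes were also above all 10 there, and 28.3% in MS_W95.

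CUMS in mice given water gave mean FPKM above those of C_W for 8 of the 9 genes, Cldn11 being the exception at 61.3 against 62.2, and 0 of the differences passed the test. All 9 had a log2 fold change (log2FC, the difference of the group means of log2(FPKM + 1)) above 0 in MS_W against C_W, from 0.0025 for Cldn11 to 0.39 for Cnp, with a median of 0.23. The median over all 21393 tested genes, whose mean FPKM reached 0.1, was 0.06, and 62.1% of them were above 0. Mean FPKM of Cnp was 94.2 ± 26.0 in MS_W, and 70.4 ± 9.23 in C_W, giving a log2FC of 0.39 (SE 0.40, limma with Benjamini-Hochberg adjustment, adjusted p = 0.717). At an adjusted p under 0.05, 0 of the 9 genes were called against 0.00467% of all tested genes, at an unadjusted p under 0.05, 0 of 9 against 10.5%, and the groups did not overlap for 0 of 9 against 24.6%. The 95% intervals of the 9 genes reached from -0.96 to 1.43. Without C_O72 and MS_W95 the median was -0.01, with 4 genes above 0 and 5 below, and the lowest adjusted p was 0.662 (limma). In the 10 libraries 0 of 9 were called, against 1.15% of all tested genes at an adjusted p under 0.05 and 15.4% at an unadjusted p under 0.05.

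CUMS in mice given krill oil gave lower means of the 9 genes, and 0 of the differences passed the test. In the MS_O against C_O comparison all 9 were below 0, with log2FC from -0.68 (Ermn) to -0.19 (Opalin) and a median of -0.53, against 0.03 over all tested genes. Ermn was 8.64 ± 2.09 in MS_O and 18.3 ± 16.2 in C_O, and its log2FC of -0.68 had an SE of 0.51 (limma, adjusted p = 0.713). Called genes were 0 of 9 against 0.00467% at an adjusted p under 0.05 and 0 of 9 against 8.88% at an unadjusted p under 0.05, and 0 of 9 had groups that did not overlap, against 12.2%. The negative values turned without the libraries that stood apart. Over the 10 libraries the median was 0.12, with 6 genes above 0 and 3 below, and 0 of 9 were called, against 0.014% at an adjusted p under 0.05 and 13.6% at an unadjusted p under 0.05. The call count also moved with C_O30, the lowest library. Without it the median was -1.02 and 7 of the 9 genes had an unadjusted p under 0.05 in limma, against 10.9% of all tested genes in the same fit. The lowest of these was that of Mal (limma, unadjusted p = 0.00968, adjusted p = 0.398).

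Krill oil in unstressed mice gave a direction for the 9 genes that rested on 1 mouse. In the C_O against C_W comparison all 9 were above 0 over the 12 libraries, from 0.02 for Opalin to 0.52 for Mbp, with a median of 0.29 against 0.00 over all tested genes. Over the 10 libraries all 9 were below 0, from -0.38 for Opalin to -0.11 for Mbp, with a median of -0.36 against -0.01. Leaving out C_O72 alone gave the same median of -0.36, and leaving out C_O30 alone gave 0.83. Mbp was 83.8 ± 68.4 in C_O and 47.4 ± 8.90 in C_W, and its log2FC of 0.52 had an SE of 0.46 and a 95% interval from -0.51 to 1.54 (limma, adjusted p = 0.908). Called genes were 0 of 9 against 0% at an adjusted p under 0.05, 0 of 9 against 3.55% at an unadjusted p under 0.05, and 0 of 9 without overlap against 9.42%. In the 10 libraries 0 of 9 were called, against 0.00467% at an adjusted p under 0.05 and 4.06% at an unadjusted p under 0.05.

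Krill oil in stressed mice gave lower means of all 9 genes with and without the libraries that stood apart, and 0 of the differences passed the test. In the MS_O against MS_W comparison the log2FC was -0.68 (Ermn) to -0.32 (Cldn11) with a median of -0.44, against -0.02 over all tested genes, of which 53.7% were below 0. Over the 10 libraries all 9 were still below 0, from -0.38 to -0.11 with a median of -0.24, against 0.00 over all tested genes. Cnp was 62.5 ± 7.99 in MS_O and 94.2 ± 26.0 in MS_W, a log2FC of -0.56 (SE 0.40, limma, adjusted p = 0.837) with a 95% interval from -1.45 to 0.33. Over the 10 libraries Cnp had a log2FC of -0.35 (SE 0.17, limma, adjusted p = 0.629). The 2 groups did not overlap for 3 of the 9 genes, Mbp, Cnp and Ermn, against 12.3% of all tested genes over the 12 libraries. The same 3 did not overlap over the 10 libraries, against 22.3%, where 2 MS_W mice were set against 3 MS_O mice. Called genes were 0 of 9 against 0.00467% at an adjusted p under 0.05 and 0 of 9 against 6.09% at an unadjusted p under 0.05. Over the 10 libraries they were 0 of 9 against 0.271% and 0 of 9 against 8.54%.

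The interaction asks whether the effect of CUMS differed between mice given krill oil and mice given water. It was below 0 for all 9 genes over the 12 libraries, from -0.998 (Mbp) to -0.37 (Opalin) with a median of -0.78, against -0.02 over all tested genes. Over the 10 libraries the median was 0.06, with 5 genes above 0 and 4 below. Called genes were 0 of 9 against 0% at an adjusted p under 0.05 and 0 of 9 against 7.23% at an unadjusted p under 0.05, and over the 10 libraries 0 of 9 against 0.145% and 0 of 9 against 7.51%. Mbp had the lowest p, with an SE of 0.65 and an unadjusted p of 0.156 in limma (adjusted p = 0.665). Without C_O30 the median interaction was -1.23 and 6 of the 9 genes had an unadjusted p under 0.05, against 9.73% of all tested genes in that fit, each with an adjusted p of 0.501 (limma). The pairwise comparisons share groups with each other, so their directions are not independent. edgeR and DESeq2 on the estimated counts called 0 of the 9 genes at an adjusted p under 0.05 in each of the 5 comparisons. At an unadjusted p under 0.05, edgeR called 0 of 9 in each, against 9.37%, 8.54%, 4.47%, 5.65% and 8.1% of all tested genes, in the order in which the comparisons were given. At the same threshold DESeq2 called 2 of 9 in MS_O against C_O, against 10.6% of all tested genes, and 0 of 9 in the others, against 11.7% in MS_W against C_W, 5.87% in C_O against C_W, 7.32% in MS_O against MS_W and 10.1% in the interaction. The 2 genes were Mbp and Ermn, with an unadjusted p of 0.0281 and 0.0408 and an adjusted p of 0.364 and 0.418 in DESeq2.

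**Figure D2:**
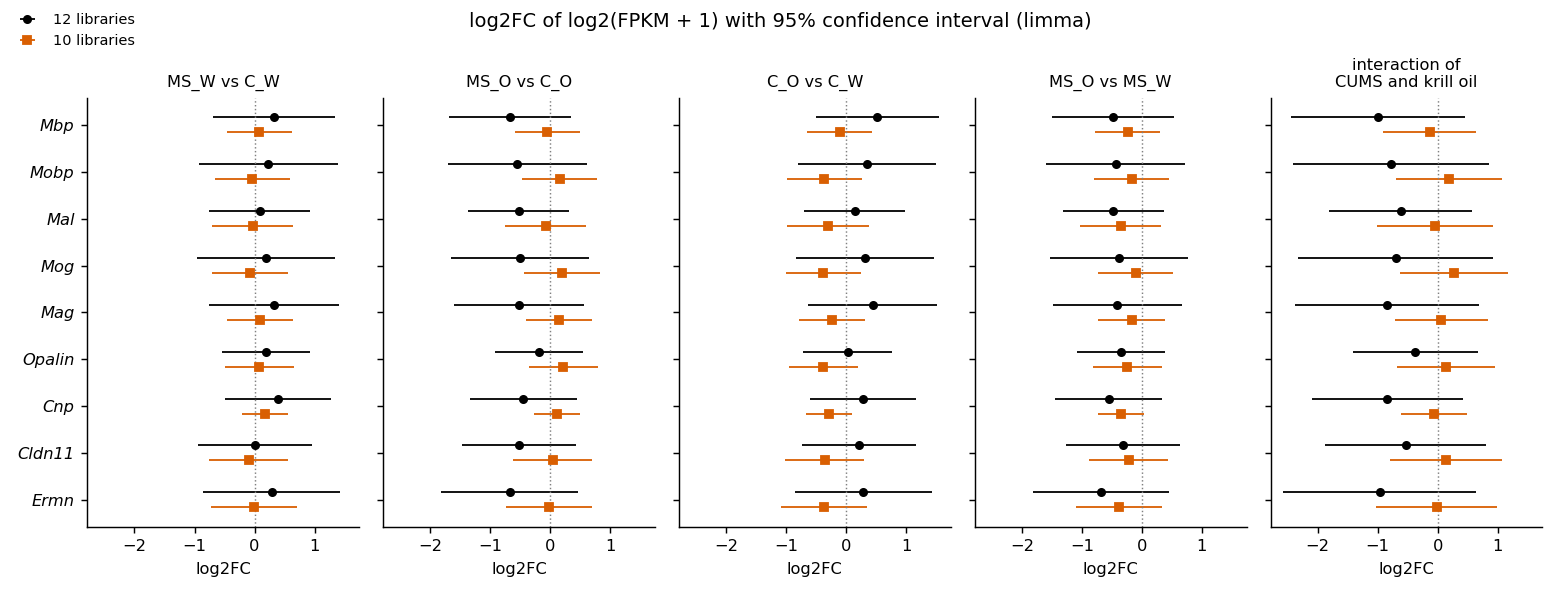
log2FC on the log2(FPKM + 1) scale with 95% confidence interval (limma) of the 9 genes in the 4 pairwise comparisons and the interaction, for the 12 libraries (black circles) and the 10 without C_O72 and MS_W95 (orange squares). Every interval covers 0, and in C_O against C_W the 9 values lie above 0 in the 12 libraries and below 0 in the 10.

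Most other genes of mature myelin were also high in the libraries that stood apart. All 26 of the other myelin genes listed were above the other 10 libraries in C_O72, and 23 of 26 were in MS_W95, at a median of 3.02 and 2.06 times the median of the 10, with a background of 25.9% and 28.3% of all tested genes. Trf, the iron carrier transferrin, had an FPKM of 298 in C_O72 and 158 in MS_W95 against 37.0 to 74.2, and Apod, an apolipoprotein, was 249 and 131 against 37.6 to 90.3. The highest ratio belonged to Klk6, a protease named after its values were seen, at 54.2 and 21.9 against 1.66 to 5.81. All 7 genes of myelin lipid synthesis were above the other 10 libraries in both. Fa2h, which makes the hydroxylated fatty acids of myelin lipids, was 36.4 and 19.9 against 6.82 to 13.1, Cers2, a ceramide synthase, 33.2 and 21.4 against 10.9 to 16.6, and Degs1, a ceramide desaturase, 35.2 and 47.8 against 17.6 to 34.2. Of the 9 oligodendrocyte transcription factors, 7 were above the other 10 in C_O72 and 5 in MS_W95. Olig1 was 80.9 and 47.5 against 30.4 to 46.3 and Sox10 30.6 and 16.7 against 10.4 to 17.3, while Sox8 was 16.1 and 11.1 against 11.05 to 14.6.

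The genes of the early stages of the lineage were mixed in these libraries, and no test of a difference between the lists was run. Of 6 precursor genes, 1 was above the other 10 libraries in C_O72 (C1ql1, 13.4 against 2.78 to 7.96) and 0 in MS_W95. The background was 25.9% and 28.3% of all tested genes. Below the other 10 were 2 of 6 in C_O72 and 3 of 6 in MS_W95, and the median ratios were 0.985 and 0.964. Pdgfra, the growth factor receptor of precursors, was 4.61 in C_O72 and 3.18 in MS_W95 against 3.45 to 5.21, and Lhfpl3 was 6.67 and 10.9 against 3.22 to 15.1. C1ql1 is also made by neurons of the inferior olive in the hindbrain. Of 5 genes of newly formed oligodendrocytes, 3 were above in C_O72 and 1 in MS_W95, and 0 and 2 were below. The median ratios were 1.28 and 0.921. Enpp6, a choline phosphodiesterase of that stage named after its values were seen, was high in both like the 9 genes, at 2.80 and 1.52 against 0.307 to 1.21. Gpr17, a receptor of that stage, was 8.07 and 6.18 against 6.98 to 13.9, Fyn, a kinase that neurons also express, 19.7 and 22.1 against 19.0 to 35.6, and Neu4, a sialidase, 3.05 and 1.85 against 1.69 to 2.39.

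**Figure D3:**
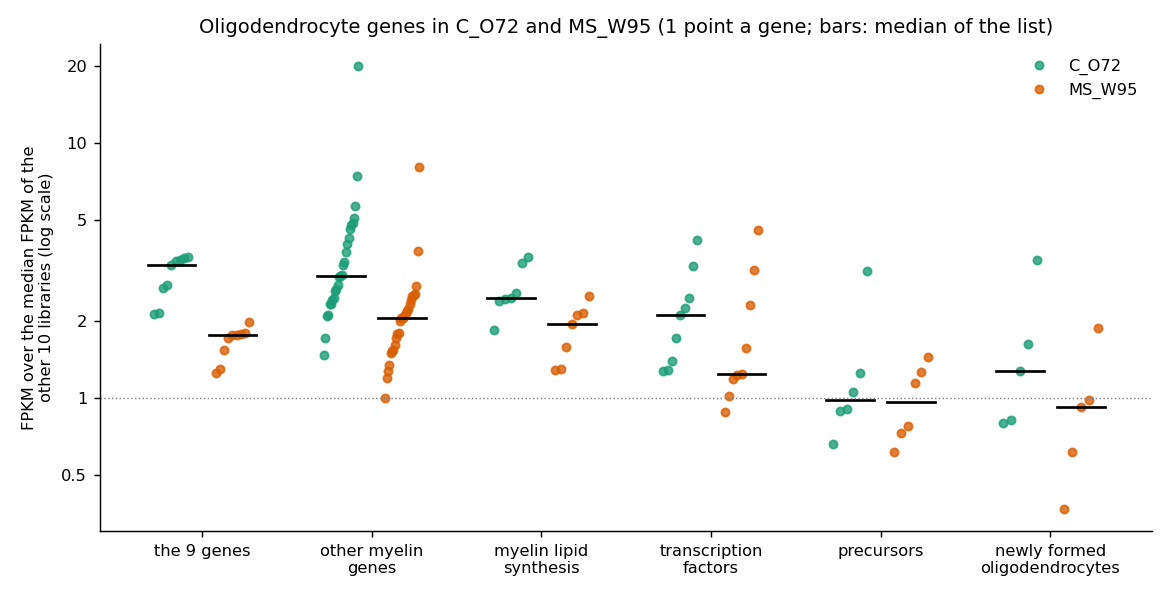
FPKM in C_O72 (green) and MS_W95 (orange) over the median FPKM of the other 10 libraries, on a log axis, with 1 point a gene and a bar at the median of each list. The 9 genes had medians of 3.34 and 1.77, the other myelin genes 3.02 and 2.06, and the precursors 0.985 and 0.964.

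In the comparisons of the groups, 0 genes of these 5 lists passed an adjusted p under 0.05, over the 12 or the 10 libraries (limma). Over the 12 libraries the median log2FC of the other myelin genes was 0.37 in MS_W against C_W, -0.41 in MS_O against C_O, 0.42 in C_O against C_W and -0.38 in MS_O against MS_W. Over the 10 it was 0.11, 0.23, -0.17 and -0.07. The number with an unadjusted p under 0.05 (limma) was 0, 0, 1 and 0 of 26 over the 12 libraries. The background there was 10.5%, 8.88%, 3.55% and 6.09% of all tested genes. Over the 10 libraries the number was 1, 3, 3 and 0 of 26, against 15.4%, 13.6%, 4.06% and 8.54%. For myelin lipid synthesis the medians over the 12 were 0.38, -0.21, 0.36 and -0.20, and over the 10 they were 0.13, 0.19, -0.13 and -0.035. The transcription factors had medians of 0.33, -0.17, 0.33 and -0.24 over the 12 and 0.21, 0.01, -0.03 and -0.23 over the 10. In MS_W against C_W all 9 of them were above 0 in both sets of libraries, with a lowest adjusted p of 0.285 and 0.120 (limma). The 6 precursor genes were also all above 0 there in both, with medians of 0.14 and 0.32, beside 62.1% and 59.5% of all tested genes. Of the 6, 1 had an unadjusted p under 0.05 over the 12 libraries, against 10.5% (limma, lowest adjusted p = 0.357). Over the 10 libraries 3 did, against a background of 15.4% (limma, lowest adjusted p = 0.153). In MS_O against C_O their medians were 0.13 and 0.19, with 5 and 6 of 6 above 0. In that comparison 1 of 6 had an unadjusted p under 0.05 over the 12 libraries, against 8.88% (limma). Over the 10 libraries 2 of 6 did, against 13.6% (limma). The precursor medians were 0.02 and -0.04 in C_O against C_W, and -0.02 and -0.14 in MS_O against MS_W. Newly formed oligodendrocyte genes had medians of 0.07, -0.17, 0.11 and -0.13 over the 12 libraries and 0.18, 0.00, -0.07 and -0.19 over the 10.

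Across the libraries, the genes whose levels were most like the mean of the 9 were also myelin genes for the most part. Among the 7497 other genes whose mean FPKM reached 5, those with the highest Pearson's r over the 12 libraries included Myrf (0.981), Ugt8a (0.979), Csrp1 (0.978), Tmem63a (0.976), Gpr37 (0.976), Gm21984 (0.975) and Gatm (0.973). Their r over the 10 libraries was 0.923, 0.940, 0.905, 0.894, 0.918, 0.892 and 0.903. Myrf drives the myelin genes, and its FPKM was 18.7 in C_O72 and 8.94 in MS_W95 against 3.50 to 6.82. Ugt8a, which makes the galactolipids of myelin, was 22.5 and 14.4 against 4.02 to 8.54. Csrp1, a LIM domain protein, was 277 and 186 against 96.6 to 137, and Gatm, an enzyme of creatine synthesis, was 69.9 and 47.6 against 19.8 to 32.3. Tmem63a, an ion channel, was 21.2 and 10.9 against 3.70 to 7.06, Gpr37, a receptor of oligodendrocytes, 26.4 and 15.8 against 6.65 to 10.1, and Gm21984 27.1 and 13.7 against 5.94 to 11.3. Of these genes, Csrp1 was the exception in not being lowest in C_O30, where the 9 genes were lowest. Among the lists, the median r over the 10 libraries was 0.70 for the other myelin genes, 0.60 for lipid synthesis, 0.39 for the transcription factors, 0.09 for the newly formed stage and -0.21 for precursors. The range within a list was wide, and among the other myelin genes it ran from -0.27, the value of Apod, to 0.97.

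**Figure D4:**
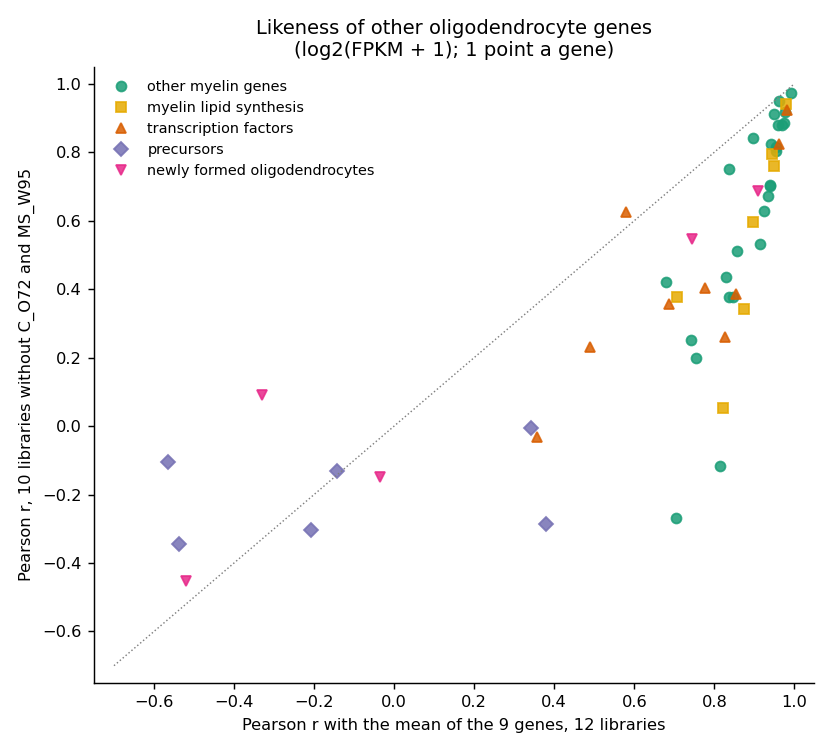
Pearson's r of log2(FPKM + 1) with the mean of the 9 genes, over the 12 libraries (horizontal) and the 10 without C_O72 and MS_W95 (vertical), 1 point a gene, with a dotted line where both are equal. The other myelin genes lie to the right, with medians of 0.93 and 0.70, and the precursors lie at or below 0 over the 10 libraries, with medians of -0.17 and -0.21.

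Markers of other cell types moved with the 9 genes to differing degrees in C_O72 and MS_W95. Of all tested genes, 25.9% were above the other 10 libraries in C_O72 and 28.3% in MS_W95. The share of all tested genes below the other 10 was not counted. Of 5 Schwann cell genes, which mark the myelin of peripheral nerves, Pmp2 was listed at 0 in 11 of the 12 libraries and Prx was at most 0.279. Ncmap was 0.843 and 0.975 against 0.169 to 0.397. Egr2, which neurons also express, was 0.128 and 0.0133 against 2.07 to 3.09. The summed FPKM of the 5 was 1.23 to 1.36 in those 2 libraries and 2.60 to 3.72 in the other 10, so the peripheral myelin genes Prx and Pmp2 were near 0 wherever the 9 genes were high. Of 6 astrocyte markers, 4 were above the other 10 libraries in each, with Gfap at 98.1 and 53.8 against 20.2 to 60.8, while Slc1a2 was 67.5 and 60.1 against 86.7 to 133. Slc1a3, an astrocyte glutamate transporter that is abundant in the cerebellum, was 35.1 in C_O72 and 92.1 in MS_W95 against 44.3 to 65.8. All 5 endothelial markers were above the other 10 in C_O72 and 2 of 5 in MS_W95, with Cldn5 at 25.8 and 23.0 against 12.8 to 24.8, Ly6c1 at 28.7 and 13.2 against 9.62 to 15.6, and Slco1a4 at 7.41 and 6.01 against 4.98 to 6.47. Of 6 microglial markers 0 were above, and all 6 were below the other 10 in MS_W95, with C1qa at 28.4 against 33.2 to 58.0 and Csf1r at 7.13 against 12.5 to 17.9. Neuronal markers split, with Nefl, the light neurofilament of thick axons, at 403 and 151 against 70.8 to 146, Syt1 at 34.7 and 62.1 against 160 to 231, and Snap25 at 367 and 339 against 242 to 421. The part of regional tissue content in the levels of the 9 genes was not tested.

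Within the other 10 libraries the region markers also differed between groups, beside 9 genes that did not pass a test. The summed FPKM of the 5 striatal markers, among them Ppp1r1b and Drd2, was 44.5 to 92.4 in C_W and 301 and 451 in MS_W31 and MS_W75. It was 150 and 231 in C_O15 and C_O30, and 125 to 321 in MS_O. In C_O against C_W over the 12 libraries 0 of 5 had an unadjusted p under 0.05, against 3.55% of all tested genes (limma). Over the 10 libraries 5 of 5 did, against 4.06% (limma). At an adjusted p under 0.05, 0 of 5 were called in that comparison, against 0.00467%. In MS_W against C_W over the 12 libraries 0 of the 5 striatal markers were called, against 0.00467% (limma, lowest adjusted p = 0.358). Over the 10 libraries, with 2 MS_W mice, all 5 were called, against 1.15% of all tested genes. Adora2a had a log2FC of 3.32 (SE 0.46, limma, adjusted p = 0.0157), Drd2 3.32, Drd1 2.40 and Ppp1r1b 2.40. Slc17a7, the vesicular glutamate transporter of cortical neurons, was the other listed gene called there, at a log2FC of -1.39 (SE 0.23, limma, adjusted p = 0.0344). Neurod6 was 32.6, 37.4 and 41.8 in C_W and 14.1 and 9.15 in MS_W31 and MS_W75, and Nrn1 was 77.6, 79.1 and 22.0 against 44.8 and 43.4. The olfactory bulb and neuroblast markers Dlx1, Dlx2 and Dcx summed with the others of their list to 77.8 and 79.3 in 2 of the 3 MS_O mice and 9.26 to 34.9 in the other libraries of the 10. Calb1, Car8 and Cbln1, the most abundant cerebellar markers, had an FPKM of 7.84 to 26.1, 1.46 to 2.40 and 0.854 to 14.0 in the 10 libraries. Over the same 10 libraries the r of the mean of the 9 genes with each striatal marker was -0.04 to 0.07. With each olfactory bulb and neuroblast marker it was -0.42 to -0.36. The range was wider for the cortex neuron markers, at -0.45 (Slc17a7) to 0.32, and for the cerebellar markers, at -0.43 to 0.45.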

How the data were processed

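Polyadenylated RNA of 12 mouse brains was sequenced from dUTP-stranded libraries. Per the submitters' processing notes and the study's methods, the authors trimmed reads with cutadapt 1.9, aligned them to mm10 with HISAT2 2.0.4 and assembled and quantified transcripts with StringTie 1.3.4d, and deposited a table of FPKM per gene, in which a gene without an estimate is listed at 0.0001. The deposited table also holds estimated counts per gene made by the authors from coverage, which were rounded here. Whether strand was used in counting is not given in the sources used here. The 3 mice of a group are separate animals, and no batch is labelled.

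Genes whose mean FPKM reached 0.1 (21393 of 55385) were tested on log2(FPKM + 1) with limma 3.58.1 in R 4.3.3, in 1 fit of the 4 groups with a mean-variance trend, and p-values were adjusted over all tested genes by the Benjamini-Hochberg method, with a threshold of 0.05. A fold change on this scale understates that of low genes. The limma p-values set each difference between groups against the spread among libraries of the same group, estimated partly from genes of similar level. That spread includes any way in which the libraries of a group differed, among them the region markers of C_O72 and MS_W95. Alternatives were a pseudocount of 0.1, no filter, centring, edgeR 4.0.16 and DESeq2 1.42.0 on the estimated counts, 10 libraries without C_O72 and MS_W95, and leaving out each library. The code was tested on simulated data. All 9 genes passed the filter. Named beside them were the 3 most abundant genes of each list, any list gene past the threshold, and the 8 genes most alike over 12 libraries. Pcp2, Gabra6, Hoxb3 and Pmp2 were named after their values were seen. Some genes that this rule names are not reported here. The members and lists were chosen with earlier results of these data known. Promoter windows came from RefSeq on GRCm38.p6 and overlapping exons from GENCODE M21. Python 3.11.15 with pandas 2.3.3 was used for tables, and matplotlib 3.10.9 for plots.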

Additional observations from a re-analysis of the deposited data

How the results depend on the processing

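None of the 9 genes was called at an adjusted p under 0.05 in the 5 comparisons, and 0 were under each of the 18 alternatives (pseudocount 0.1, no filter, libraries centred on their median, edgeR, DESeq2, the 10 libraries, and 1 library left out in turn). Directions were less stable. Without C_O72 and MS_W95 the median log2FC of the 9 genes was 0.12 in MS_O against C_O, -0.36 in C_O against C_W and 0.064 in the interaction, and the log2FC that changed sign were these. In MS_W against C_W: Mobp -0.035, Mal -0.032, Mog -0.080, Cldn11 -0.10 and Ermn -0.0087. In MS_O against C_O: Mobp 0.16, Mog 0.19, Mag 0.15, Opalin 0.22, Cnp 0.12 and Cldn11 0.038. In C_O against C_W: Mbp -0.11, Mobp -0.36, Mal -0.31, Mog -0.38, Mag -0.24, Opalin -0.38, Cnp -0.28, Cldn11 -0.36 and Ermn -0.37. In the interaction: Mobp 0.19, Mog 0.27, Mag 0.064, Opalin 0.14 and Cldn11 0.14. In MS_W against C_W the signs of Mal and Cldn11, both near 0, also changed, to -0.029 and -0.12 with DESeq2, -0.024 and -0.12 with edgeR, and -0.014 and -0.10 with the libraries centred on their median. With 1 library left out in turn, the median ran from -0.0087 to 0.39 in MS_W against C_W, -1.02 to 0.12 in MS_O against C_O, -0.36 to 0.83 in C_O against C_W, -0.58 to -0.24 in MS_O against MS_W and -1.23 to -0.17 in the interaction. The genes that changed sign at least once ran, in MS_W against C_W, Cldn11 -0.22 to 0.11, Ermn -0.0087 to 0.51, Mal -0.10 to 0.24, Mobp -0.035 to 0.38 and Mog -0.080 to 0.39, in MS_O against C_O, Cldn11 -1.02 to 0.038, Cnp -0.84 to 0.12, Mag -1.03 to 0.15, Mobp -1.13 to 0.16, Mog -1.01 to 0.19 and Opalin -0.49 to 0.22, in C_O against C_W, Cldn11 -0.36 to 0.70, Cnp -0.28 to 0.67, Ermn -0.37 to 0.83, Mag -0.24 to 0.95, Mal -0.31 to 0.59, Mbp -0.11 to 1.02, Mobp -0.36 to 0.93, Mog -0.38 to 0.83 and Opalin -0.38 to 0.33, in the interaction, Cldn11 -1.02 to 0.035 and Opalin -0.68 to 0.029. The extremes of MS_O against C_O, C_O against C_W and the interaction came without C_O30 and without C_O72. In MS_O against MS_W no gene changed sign under any of the alternatives. Over all tested genes the calls in the 5 comparisons, in the order above, were 1, 1, 0, 1 and 0 by limma, 389, 172, 54, 79 and 151 by DESeq2, 1, 1, 0, 1 and 0 by edgeR, 246, 3, 1, 58 and 31 over the 10 libraries and 5, 1, 2, 3 and 1 with no filter. Leaving out 1 library gave 0 to 101, 1 to 112, 0 to 4, 1 to 31 and 0 to 20. The cause of these changes was not tested. With 3 mice a group, the 95% interval of the log2FC reached past 1 in size for 6, 8, 7, 9 and 9 of the 9 genes in the 5 comparisons, in the same order, and over the 10 libraries for 0, 0, 3, 2 and 5. No paired analysis was possible because the mouse numbers are not shared between groups.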
